A study of Mus musculus with 2 samples.

Results

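The genes of the vascular endothelial growth factor (VEGF) family were followed in sorted mouse lung cells after melanoma cells had reached the circulation. The set was chosen by gene family name, with earlier results of these data known. It holds 4 ligand genes (Vegfa, Vegfb, Vegfc and Pgf) and 5 receptor and co-receptor genes (Flt1, Kdr, Flt4, Nrp1 and Nrp2), which are 9 of the 31053 features counted. Adult male C57BL/6 mice of WT genotype received PBS in the control group and 200000 melanoma cells of the B16-F10 line in the metastatic group, both through the tail vein, and their lungs were taken 6 h later. The melanoma line comes from mouse skin, was labelled with a green dye and forms lung colonies when given intravenously. Dissociated lung cells were sorted for PECAM1, a surface protein of endothelial cells that platelets and some leukocytes also carry, and by the methods of the study this sort had no gate against leukocytes.

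Each library held the pooled cells of 2 mice, and each group held 1 library. A difference between the libraries could therefore not be set against a spread between mice, no test between the conditions was run, and treatment and library cannot be told apart. The libraries were made by 3′ counting, in which each captured RNA molecule carries a unique molecular identifier (UMI), so that splice forms and proteins were not resolved. Levels are the UMIs of a gene scaled to the total UMIs of the same cells (CPM), with exact Poisson 95% intervals in parentheses. Ratios are log2 of the metastatic over the control CPM with exact conditional binomial intervals, and shares of cells carry exact Clopper-Pearson intervals. All intervals cover counting error only. Levels of different genes are not compared with each other, because 3′ capture differs between genes.

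The libraries held 67929614 and 64733724 UMIs, and the filters left 7134 and 6466 barcodes as cells (median 6272.5 UMIs in the control and 6526.5 in the metastatic library). Cells were put in a class when at least 2 of its markers were detected. This gave 5020 control and 4519 metastatic general capillary cells (Gpihbp1, Aplnr, Kit, Lpl), 1364 and 1086 aerocytes, the thin capillary cells of gas exchange (Ednrb, Fibin, Tbx2), 63 and 59 artery cells (Gja5, Bmx, Fbln5) and 247 and 304 vein cells (Slc6a2, Car8, Bst1). A further 46 and 32 cells met more than 1 rule and 394 and 466 met none, and 84.7% and 83.4% of the general capillary cells carried at least 3 of their markers. Summed markers outside the rule were highest in their own class. The vein check genes (Nr2f2, Bgn, Vwf) summed to 3071 and 2976 CPM in vein cells against 168 and 151 CPM in general capillary cells. The aerocyte check genes (Car4, Apln, Tbx3, Chst1) summed to 2659.7 and 2613 CPM in aerocytes against 425 and 459.7 CPM. The artery check genes (Sox17, Efnb2, Cxcl12, Mecom) summed to 2855 and 2979 CPM in artery cells against 1070 and 1225 CPM. Of these, Sox17 was higher in general capillary cells (206 and 275 against 136 and 199 CPM). The general capillary check genes (Glp1r, Sema3c, Hmcn1) summed to 1483 and 1528 CPM against 988 and 961 CPM in vein cells. Hmcn1 was higher in vein cells (350 and 414 against 321 and 365 CPM). The vein check genes also reached 2119 and 1776 CPM in artery cells. At least 3 of 6 endothelial markers were found in 98.4% of the general capillary cells of each library.

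The libraries shared 16 cell barcodes among the called cells, and 23192 barcodes of 50 to 1000 UMIs appeared in both. Those shared small barcodes carried 6 melanoma marker genes at a control level of 9074 CPM and a metastatic level of 9058 CPM, although control mice received no melanoma cells, whereas called general capillary cells held them at 1.87 and 2.38 CPM. Barcodes with 11 to 50 UMIs held them at 5287 and 5273 CPM, so the RNA of these small barcodes is not the RNA found in called cells. Ratios after its subtraction enter the closing section only, and not as a correction. In called general capillary cells, summed red cell markers stood at 1956 and 822 CPM, epithelial markers at 1703 and 1004 CPM and platelet markers at 176 and 272 CPM. With cells holding at least 3 markers of another cell type left out, the general capillary ratios of Vegfa and Kdr were 0.83 and 0.70. Lymphoid cells of the same libraries (45 and 44 cells, medians of 4770.0 and 5015.5 UMIs), which should lack most VEGF receptors, served as the background. They held at least 3 lymphoid markers and few or no endothelial markers. That rule left out cells with more endothelial RNA, so these cells may understate stray endothelial RNA.

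VEGF ligands are secreted dimers that bind receptor tyrosine kinases on endothelial cells. VEGF-A signals mainly through VEGFR2, the product of Kdr, while VEGFR1, the product of Flt1, binds VEGF-A, VEGF-B and placental growth factor tightly with little kinase activity and acts as a trap. VEGF-C and VEGF-D act on VEGFR3, the product of Flt4, which governs lymphatic growth, and the neuropilins Nrp1 and Nrp2 hold ligands on the cell surface as co-receptors. In the lung alveolus, VEGF-A comes largely from the epithelium, and aerocytes are known for high Kdr, while endothelial cells also make some ligand themselves.

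Among general capillary cells, Vegfa, Kdr, Nrp1 and Nrp2 were higher in the metastatic than in the control library by a log2 ratio of more than 0.32, the limit used throughout, and no member was lower by as much. Nrp2 is the weakest of them, on 180 and 218 UMIs, and its ratio was 0.27, short of the limit, among cells without any UMI of another class marker. These are 4 of the 8 members with at least 200 UMIs over both libraries, the minimum set for a ratio to be counted, whereas of all 10222 features at that minimum 8.97% were past the limit in the higher and 4.74% in the lower direction. The median ratio of the 8 members was 0.28, against 0.02 over all features, whose middle 95% lay between -0.45 and 0.59. Vegfa and Kdr lay above that range, and Nrp1 lay within it.

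**Figure D1:**
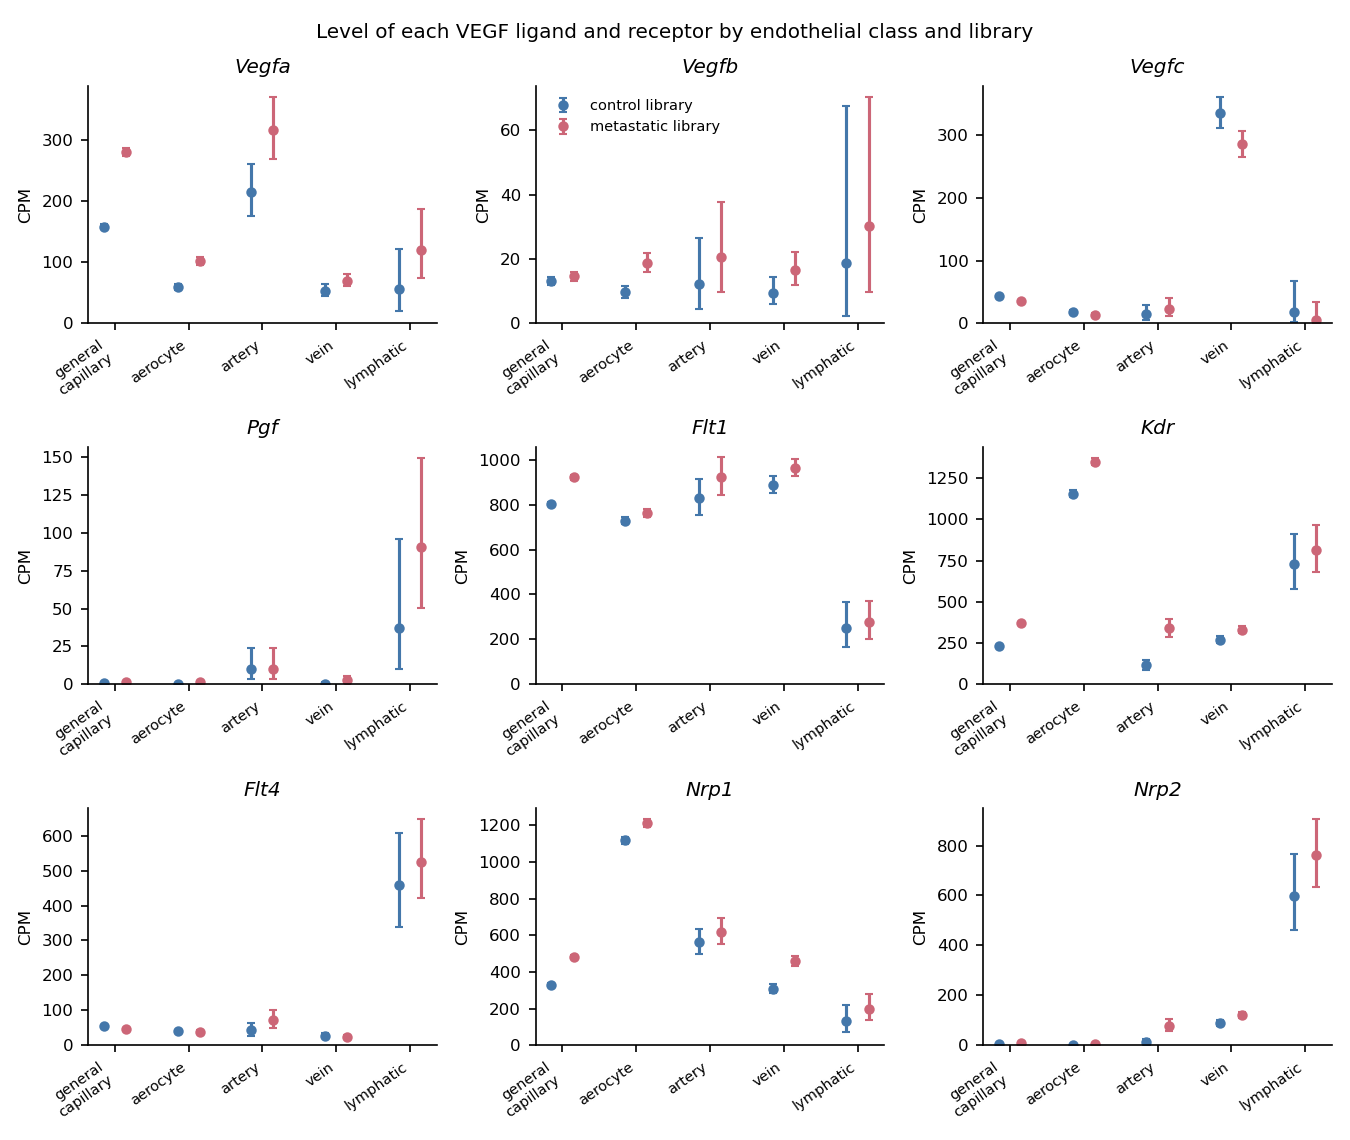
Level of each member in CPM (vertical axes, each panel with its own scale) by endothelial class in the control library (blue) and the metastatic library (red); points are the sums over the cells of a class and bars the exact Poisson 95% intervals. Vegfa was higher in the metastatic library in all 4 blood vessel classes, Vegfc stood out in vein cells, Kdr and Nrp1 in aerocytes, and Flt4, Nrp2 and Pgf in lymphatic cells, which numbered 14 and 24.

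Vegfa (ENSMUSG00000023951, GRCm38 chromosome 17, 46016993 to 46032369, minus strand), the principal angiogenic and permeability factor of the family, stood at 158 CPM (154–162, 5072 UMIs) in control and 280.3 CPM (274–286, 8490 UMIs) in metastatic general capillary cells. The intervals were far apart, and the ratio was 0.83 (0.78 to 0.88). In aerocytes Vegfa was at 58.9 CPM (54.5–63.5) and 101 CPM (94.9–108), a ratio of 0.78 (0.64 to 0.93). The general capillary ratio minus the aerocyte ratio was 0.046 (-0.11 to 0.20), so no difference between both capillary classes was detectable. With every cell thinned at random to 2000 UMIs before summing, the aerocyte ratio was 0.45. Artery cells held 215 CPM (176–260.0) and 317 CPM (269–371), a ratio of 0.56 (0.19 to 0.93) on 106 and 154 UMIs, or 1.04 after thinning. Vein cells had the smallest Vegfa difference, from 53.0 CPM (43.9–63.6) to 69.9 CPM (60.2–80.7), a ratio of 0.40 (0.06 to 0.74). The general capillary ratio exceeded the vein ratio by 0.43 (0.09 to 0.77), but the vein ratio was 0.79 after thinning. Thinned ratios come from a random draw that keeps fewer UMIs, and they carry no interval. They also leave out cells under 2000 UMIs and weight the other cells equally, not by depth. In a separate draw 24 of 246 control and 30 of 303 metastatic vein cells were Vegfa-positive (9.76% and 9.90%). Epithelial cells and platelets are known to hold Vegfa RNA: epithelial markers were lower in the metastatic library in general capillary cells (values above) and in aerocytes (640.3 and 97.6 CPM), whereas platelet markers were higher in both, with 76.6 and 158 CPM in aerocytes. Without the cells holding at least 3 markers of another type the aerocyte ratio was 0.80.

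Within both libraries Vegfa was higher in artery and general capillary cells than in aerocytes and vein cells, and the artery level exceeded the general capillary level by 0.44 (0.15 to 0.72, log2) in the control library and by 0.18 (-0.06 to 0.41) in the metastatic library. When cells of more than 1 class were counted in each of their classes these became 0.03 and -0.07, so artery and general capillary cells could not be ranked. Relative to general capillary cells (log2), aerocytes were at -1.42 and -1.47 and vein cells at -1.57 and -2.00. Lymphoid cells held 1 and 0 Vegfa UMIs.

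The share of Vegfa-positive cells and the UMIs per positive cell both differed between the libraries. After thinning to 2000 UMIs, 25.1% (23.9–26.3) of 4947 control and 36.1% (34.7–37.6) of 4461 metastatic general capillary cells carried at least 1 Vegfa UMI, with 73 and 58 cells too shallow to thin. Cells with at least 3 UMIs made up 1.01% and 3.61%, and the mean over positive cells was 1.24 and 1.46 UMIs. Without thinning the positive shares were 52.1% and 66.2%, at class medians of 5950.5 and 6275.0 UMIs. Thinned lymphoid cells held Vegfa in 0 of 45 and 0 of 44 cells, where a limit of 3 counts allows shares of cells with a UMI of up to 6.67% and 6.82% and the exact intervals reach 7.87% and 8.04%. Thinned aerocytes were positive in 8.94% (7.47–10.6) and 12.8% (10.8–14.9).

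Promoter sequence was read from RefSeq on GRCm38.p6, where all 9 members matched. The table held 11 promoters of these members, 2 of them for Vegfa. The 250 bases upstream of the outermost start are shown for Vegfa and Kdr, the ligand and the receptor with the largest general capillary ratios, with matches to the GC box (GGGCGG) and the ETS core (CCGGAA), on either strand, in capitals. The Vegfa window is chr17:46032378-46032627 and the Kdr window chr5:75978456-75978705, both printed 5′ to 3′ on the minus strand.
Vegfa: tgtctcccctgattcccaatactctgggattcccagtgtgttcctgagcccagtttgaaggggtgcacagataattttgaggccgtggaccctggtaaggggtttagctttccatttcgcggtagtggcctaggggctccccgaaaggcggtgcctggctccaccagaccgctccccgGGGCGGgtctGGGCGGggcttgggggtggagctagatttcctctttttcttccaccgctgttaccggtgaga
Kdr: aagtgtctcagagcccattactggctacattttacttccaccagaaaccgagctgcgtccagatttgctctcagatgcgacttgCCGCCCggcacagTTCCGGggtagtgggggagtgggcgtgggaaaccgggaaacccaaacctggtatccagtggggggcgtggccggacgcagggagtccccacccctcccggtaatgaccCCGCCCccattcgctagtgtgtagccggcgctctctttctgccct
Each window held 2 GC boxes, and the Kdr window also held 1 ETS core. Over 32851 promoter windows of this length, 32.7% held a GC box and 12.0% an ETS core. Neither of the printed windows matched the hypoxia response core (ACGTG, 16.6% of windows), the STAT spacing (TTCNNNGAA, 7.02%), the AP-1 letters (TGANTCA, 6.75%) or the NF-kB letters (GGGNNTTCC, 4.98%). The other Vegfa promoter, at a start within the gene, held 1 GC box and 1 hypoxia response core. A match is a string of letters, not a bound site, and an absent match says nothing about the factor.

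Vegfb (ENSMUSG00000024962, chromosome 19, 6982473 to 6987651, minus strand), a VEGFR1 ligand linked to fatty acid handling, differed between the libraries in aerocytes and not detectably in general capillary cells. In aerocytes it was at 9.62 CPM (7.90–11.6, 109 UMIs) in the control and 18.8 CPM (16.1–21.7, 176 UMIs) in the metastatic library, and these intervals did not overlap. The aerocyte ratio was 0.96 (0.61 to 1.32), or 0.62 after thinning. General capillary cells held 13.1 CPM (11.9–14.4) and 14.6 CPM (13.3–16.1), a ratio of 0.16 (-0.04 to 0.35). The aerocyte ratio was higher than the general capillary ratio, with a difference of -0.80 (-1.20 to -0.41) in the direction general capillary minus aerocyte. Lymphoid cells, on 6 and 1 UMIs, had Vegfb levels of 25.4 CPM (9.33–55.3) and 4.17 CPM (0.106–23.2), and the control value lay above that of the control aerocytes. Vegfb was at 111 and 103 CPM in the shared small barcodes, but at 13.3 and 14.1 CPM in barcodes of 50 to 1000 UMIs found in 1 library only. The part of any background in the Vegfb levels was not tested.

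Vegfc (ENSMUSG00000031520, chromosome 8, 54077606 to 54187096, plus strand), the lymphangiogenic ligand of VEGFR3, was a vein gene in both libraries and lower in the metastatic library in both capillary classes and the vein class. Vein cells held 336 CPM (312–361) and 286 CPM (266–307), which was 7.79-fold and 8.07-fold the general capillary level. Thinned vein cells were Vegfc-positive in 46.3% and 41.3%, against 6.93% and 6.10% of general capillary cells. The vein ratio was -0.23 (-0.38 to -0.08), but -0.11 after thinning and -0.073 when cells of more than 1 class were counted in each. General capillary cells held 43.1 CPM (40.9–45.5) and 35.5 CPM (33.4–37.6), a ratio of -0.28 (-0.40 to -0.17), which is short of the limit. In aerocytes Vegfc was at 18.1 CPM (15.7–20.8) and 13.3 CPM (11.1–15.9), a ratio of -0.44 (-0.78 to -0.11), or -0.22 when cells of more than 1 class were counted in each. Artery cells held only 7 and 11 Vegfc UMIs.

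Pgf (ENSMUSG00000004791, chromosome 12, 85166635 to 85177790, minus strand), which encodes placental growth factor, another VEGFR1 ligand, was near the limit of detection in the blood vessel classes. There were 21 and 36 UMIs in general capillary cells (12 of the latter in 1 cell), and aerocytes held 2 and 13, artery cells 5 and 5, and vein cells 0 and 7. All 4 pairs were under the minimum of 200 UMIs, so no ratio was counted. The 14 and 24 cells with at least 2 lymphatic markers (Mmrn1, Prox1, Reln, Ccl21a) held 4 and 15 Pgf UMIs, or 37.4 CPM (10.2–95.8) and 90.5 CPM (50.7–149). Pgf was at 59.0 and 63.3 CPM in the shared small barcodes and at 3.87 and 4.44 CPM in the small barcodes found in 1 library only. The remaining ligand gene Vegfd was at 4.77 and 4.29 CPM in general capillary cells, a ratio of -0.15 (-0.50 to 0.20).

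**Figure D2:**
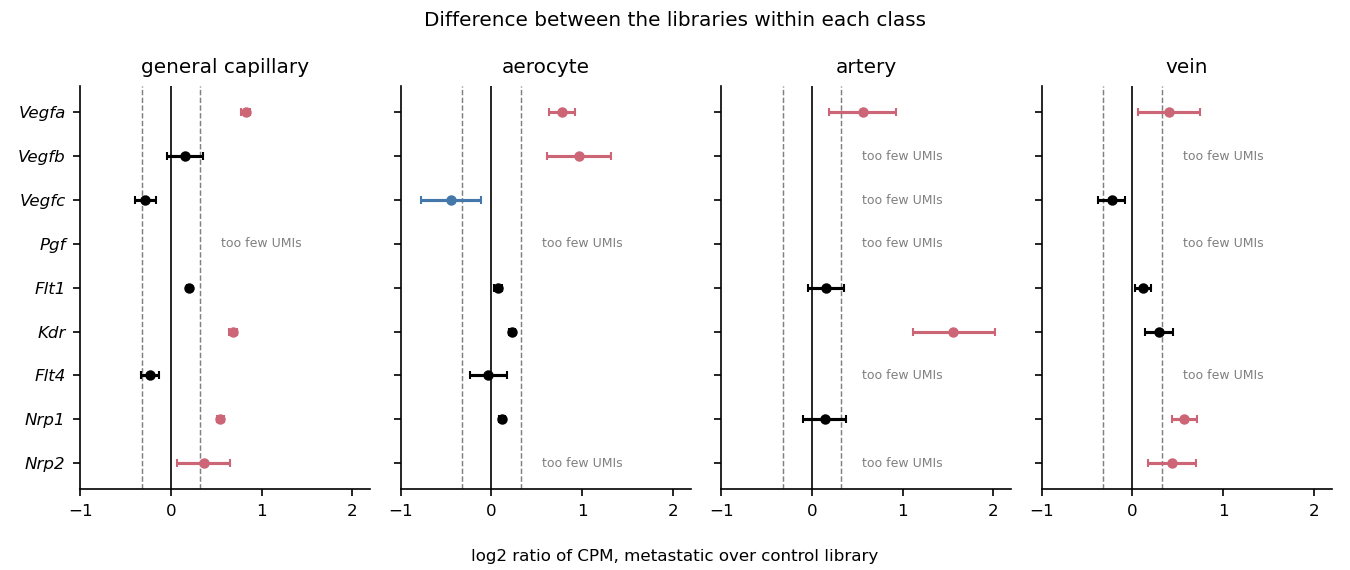
Log2 ratio of metastatic over control CPM (horizontal axis) for each member in the 4 blood vessel classes, with exact 95% intervals; dashed lines mark the limit of log2 0.32, red points lie past it in the higher and blue in the lower direction, and members under 200 UMIs have no point. Vegfa lay past the limit in all 4 classes, whereas Kdr did so in general capillary and artery cells and Nrp1 in general capillary and vein cells.

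Of the receptors, Flt1 (ENSMUSG00000029648, chromosome 5, 147561604 to 147726011, minus strand) differed little between the blood vessel classes and libraries. General capillary cells held 804 CPM (794–814) and 922 CPM (911–932), a ratio of 0.20 (0.17 to 0.22). The aerocyte levels were 729 and 765 CPM, a ratio of 0.07 (0.02 to 0.12). The vein levels were 889.8 and 964 CPM, a ratio of 0.12 (0.03 to 0.20), and the artery ratio of 0.15 (-0.04 to 0.35) held 0. No class reached the limit, although the artery ratio was 0.36 after thinning. Counting over 3′ ends does not part the membrane receptor from its soluble splice form, which is known as the VEGF-A trap.

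Kdr (ENSMUSG00000062960, chromosome 5, 75932827 to 75978458, minus strand), which encodes the main signaling receptor, was highest in aerocytes in both libraries, and its ratios were larger in artery and general capillary cells than in aerocytes. The general capillary levels were 232 CPM (226–237, 7433 UMIs) and 372 CPM (366–379, 11283 UMIs), a ratio of 0.69 (0.64 to 0.73). Aerocytes held 1157 CPM (1137–1177) and 1352 CPM (1328–1376), a ratio of 0.22 (0.19 to 0.26). The aerocyte level thus exceeded the general capillary level by 2.32 (log2) in the control and by 1.86 in the metastatic library. The general capillary ratio exceeded the aerocyte ratio by 0.46 (0.41 to 0.52) and the vein ratio by 0.39 (0.24 to 0.55). Vein cells held 269 CPM (248–292) and 330.0 CPM (309–353), so they lay above the general capillary cells in the control library and below them in the metastatic library. Lymphatic cells held 730 and 815 CPM on 78 and 135 UMIs, which was 3.15-fold and 2.19-fold the general capillary level.

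The largest Kdr ratio was in artery cells, 1.55 (1.11 to 2.01), on 57 UMIs in 63 control cells and 165 UMIs in 59 metastatic cells. Their levels were 116 CPM (87.6–149.8) and 339 CPM (289–395), and thinned artery cells were Kdr-positive in 15.9% (7.88–27.3) and 37.3% (25.04–50.9). Markers of other cells also differed between the artery cells: the lymphatic markers stood at 2.03 and 1480.3 CPM with 2 metastatic cells holding at least 2 of them, and the platelet markers at 16.2 and 148 CPM. Without the lymphatic cells the ratio was 1.48. It was 0.83 when cells of more than 1 class were counted in each. The class markers differed too: Gja5 was at 158 and 59.6 CPM on 78 and 29 UMIs, a ratio of -1.41 (-2.08 to -0.78). The intervals of Bmx and Fbln5 held 0. All 3 artery markers were found in 19.0% and 8.47% of the artery cells. The part of this class make-up in the artery ratios was not tested. Of the 4 artery members with at least 200 UMIs, Vegfa and Kdr were past the limit in the higher direction, against 11.8% of the 781 features at that minimum, and none in the lower, against 11.1%.

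Flt4 (ENSMUSG00000020357, chromosome 11, 49609263 to 49652739, plus strand), which encodes VEGFR3, was detected in all classes and led by the lymphatic cells. These held 458 CPM (339–606, 49 UMIs) and 525 CPM (420.5–648, 87 UMIs), which was 8.44-fold and 11.4-fold the general capillary level. In general capillary cells Flt4 was at 54.3 CPM (51.8–56.9) and 46.3 CPM (43.9–48.7), a ratio of -0.23 (-0.33 to -0.13). Aerocytes held 39.6 and 38.7 CPM, a ratio of -0.03 (-0.24 to 0.17). Artery cells held 21 and 35 UMIs and vein cells 60 and 63, too few for a ratio to be counted.

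Nrp1 (ENSMUSG00000025810, chromosome 8, 128358604 to 128503363, plus strand), the co-receptor that binds VEGF-A together with VEGFR2 and also class 3 semaphorins, was highest in aerocytes, as Kdr was. Its general capillary levels were 331 CPM (325–338, 10636 UMIs) and 484 CPM (476–491, 14648 UMIs), a ratio of 0.55 (0.51 to 0.58). Vein cells held 309.6 CPM (287–334) and 460.4 CPM (435–487), a ratio of 0.57 (0.44 to 0.71) that did not detectably differ from the general capillary ratio. Aerocytes held 1119 CPM (1099–1138) and 1214 CPM (1192–1237), a ratio of 0.12 (0.08 to 0.15), which was lower than the general capillary ratio by 0.43 (0.38 to 0.48). The fold of aerocytes over general capillary cells was 3.38 in the control and 2.51 in the metastatic library. Artery cells held 562 and 619 CPM, a ratio of 0.14 (-0.10 to 0.38) that changed to -0.22 after thinning.

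Nrp2 (ENSMUSG00000025969, chromosome 1, 62703285 to 62818695, plus strand), the co-receptor of VEGF-C and VEGFR3, was a lymphatic and vein gene. Lymphatic cells held 599 CPM (461–765) and 760.3 CPM (633–905), with 40 of the 64 control UMIs in 1 cell, and vein cells held 89.3 CPM (77.3–103) and 121 CPM (108–135). The vein ratio was 0.43 (0.17 to 0.70), or 0.31 after thinning, which is short of the limit. Thinned vein cells were Nrp2-positive in 10.98% (7.36–15.6) and 19.8% (15.5–24.7). In general capillary cells Nrp2 was at 5.61 CPM (4.82–6.49, 180 UMIs) and 7.20 CPM (6.27–8.22, 218 UMIs), a ratio of 0.36 (0.07 to 0.65). The shared small barcodes held Nrp2 at 158 and 153 CPM and those found in 1 library only at 15.2 and 16.9 CPM, and the part of such RNA in the general capillary level was not tested. In metastatic artery cells 25 of the 38 Nrp2 UMIs came from 1 cell.

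In aerocytes 2 of 7 members with at least 200 UMIs (Vegfa and Vegfb) were past the limit in the higher direction, against 7.15% of 8252 features, and 1 (Vegfc) in the lower, against 4.22%. In vein cells 3 of 6 members (Vegfa, Nrp1 and Nrp2) were past it in the higher direction, against 8.35% of 4130 features, and none in the lower, against 8.81%. Metastatic vein cells also held epithelial markers at 3666 CPM against 133 CPM in the control library and myeloid markers at 614 against 32.2 CPM. With cells of other-type RNA left out, the vein ratios were 0.51 for Vegfa, 0.64 for Nrp1 and 0.46 for Nrp2. All members were measured in the same cells of the same libraries, so their ratios are not independent of each other.

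For Kdr and Nrp1 the libraries differed both in how many general capillary cells carried the gene and in UMIs per carrying cell, with means of 1.34 and 1.57 UMIs for Kdr and 1.48 and 1.68 for Nrp1. After thinning, Kdr was found in 34.2% (32.9–35.6) of control and 46.4% (44.97–47.9) of metastatic cells, with at least 3 UMIs in 2.08% and 6.10%. Nrp1 was found in 43.8% (42.4–45.2) and 57.05% (55.6–58.5), with at least 3 UMIs in 4.39% and 9.53%. Flt1 was found in 73.3% and 78.1%. Flt4 went the other way, at 10.1% (9.32–11.02) and 8.68% (7.87–9.54) with overlapping intervals and means of 1.08 and 1.07 UMIs. The shift thus covered cells with 1, 2 and 3 or more UMIs of Vegfa, Kdr and Nrp1. In thinned lymphoid cells Kdr was found in 4.44% and 4.55%, Nrp1 in 0% and 2.27% and Flt1 in 0% and 4.55%. In aerocytes, where most cells were positive at this depth, Kdr was found in 79.7% and 81.9% and Nrp1 in 80.6% and 84.0%.

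**Figure D3:**
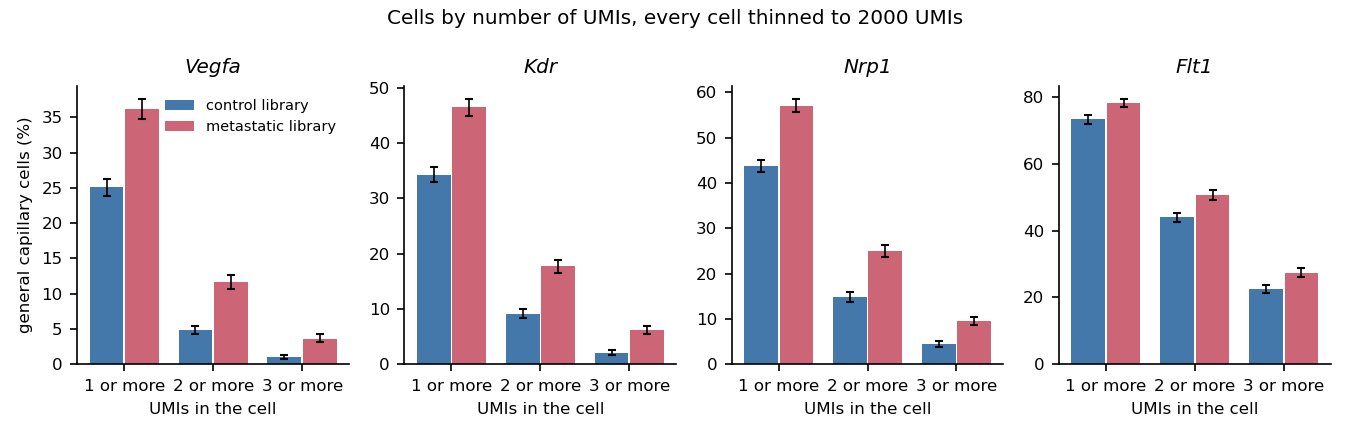
Percent of general capillary cells (vertical axes) with at least 1, 2 or 3 UMIs of Vegfa, Kdr, Nrp1 or Flt1 after thinning every cell to 2000 UMIs, in the control library (blue, 4947 cells) and the metastatic library (red, 4461 cells), with exact Clopper-Pearson 95% intervals. In each pair the metastatic bar is the taller, and for Vegfa the share with at least 3 UMIs was 1.01% and 3.61%.

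Ligand and receptor RNA were also compared cell by cell. In thinned metastatic general capillary cells, Nrp1 was found in 65.1% (62.8–67.5) of the 1612 cells with a Vegfa UMI and in 52.5% (50.6–54.3) of the 2849 cells without one. In the control library these shares were 47.5% (44.7–50.3) and 42.5% (40.9–44.1). Kdr was found in 50.6% and 44.1% of metastatic cells with and without Vegfa, and in 35.1% and 34.0% of control cells. Flt1 was found in 77.5% and 78.4% of metastatic cells with and without Vegfa. Flt4 and Nrp2 ran the other way in metastatic cells, at 7.38% (6.15–8.77) with and 9.41% (8.36–10.5) without Vegfa for Flt4, and at 0.682% (0.341–1.22) and 1.40% (1.005–1.91) for Nrp2, with overlapping intervals. Cells of 1 library are not replicates, and these shares describe the pools.

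The study described a reactive state of capillary cells after melanoma injection. Here a thinned general capillary cell was called reactive when at least 3 of 7 genes of that state (Pim3, Bcl3, Inhbb, Osmr, Tmem252, Adamts9, Scarb1) were detected, a rule that used no VEGF gene. The rule took in 298 cells (6.02%) of the control library, whose median was 6124.0 UMIs against 5980.0 in its other cells. In the metastatic library it took in 518 cells (11.6%), at a median of 6658.5 against 6275.0 UMIs. Vegfa was at 144 CPM (128–162) in reactive and 159 CPM (155–164) in other cells of the control library, and at 412 CPM (391–433) and 262 CPM (256–268) in the metastatic library. Reactive cells thus exceeded the other cells by 0.65 (0.57 to 0.73, log2) in the metastatic library and by -0.14 (-0.32 to 0.03) in the control library. The ratio of metastatic over control was 1.51 (1.33 to 1.70) in reactive and 0.72 (0.67 to 0.77) in the other cells, so the Vegfa difference was present in both. With 1 or more Inhbb UMI as the rule (116 and 338 cells), reactive cells exceeded the others by 0.32 and 0.34. By that rule the ratio of metastatic over control was 0.82 (0.59 to 1.06) in reactive and 0.80 (0.75 to 0.85) in other cells. The larger ratio in reactive cells thus depended on the rule.

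Vegfc went the other way in metastatic reactive cells, at 28.6 CPM (23.4–34.6) against 36.5 CPM (34.2–38.9) in the others, and at 51.5 CPM (42.0–62.6) against 42.6 CPM (40.3–45.0) in the control library. Among Inhbb-positive cells it was lower in both libraries, at 19.1 CPM (17 UMIs) against 43.8 CPM in the control and 5.78 CPM (16 UMIs) against 38.4 CPM in the metastatic library. Nrp2 was higher in reactive cells of both libraries, at 14.1 against 5.04 CPM and 16.6 against 5.86 CPM, on 28 and 62 UMIs. Its ratio of metastatic over control was 0.23 (-0.44 to 0.93) in reactive and 0.22 (-0.11 to 0.55) in other cells. Both were short of the limit with 0 in the interval. By the Inhbb rule these ratios were 1.07 (0.05 to 2.27) and 0.08 (-0.24 to 0.40). Flt1 was at 1111 CPM (1078–1145) in reactive and 895 CPM (884–907) in other metastatic cells, a log2 difference of 0.31 (0.26 to 0.36). In the control library this difference was 0.09 (0.018 to 0.16). By the Inhbb rule it was 0.42 (0.32 to 0.51) in the control and 0.35 (0.30 to 0.40) in the metastatic library. Kdr did not separate the states, with log2 differences of 0.0073 (-0.13 to 0.14) and 0.054 (-0.027 to 0.13), although it was higher in the metastatic library in reactive (0.73) and other cells (0.68). The log2 difference of Nrp1 between reactive and other cells was -0.14 (-0.27 to -0.025) and -0.094 (-0.17 to -0.021), but by the Inhbb rule it was 0.28 in the control and -0.17 in the metastatic library. The Nrp1 ratio of metastatic over control was 0.60 (0.46 to 0.74) in reactive and 0.55 (0.51 to 0.59) in other cells. By the Inhbb rule these ratios were 0.12 (-0.05 to 0.29) and 0.57 (0.53 to 0.61).

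**Figure D4:**
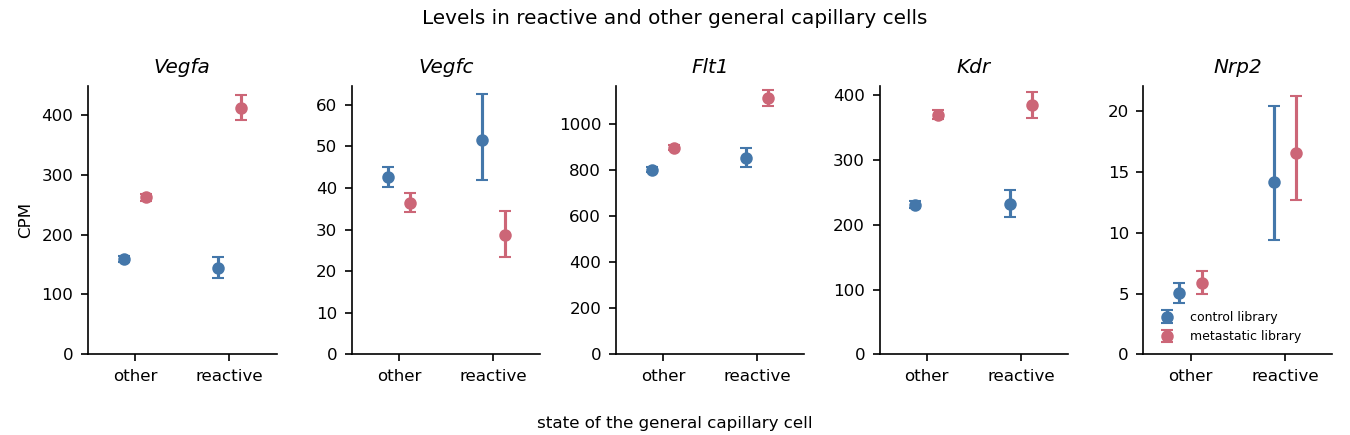
Level in CPM (vertical axes, each panel with its own scale from 0) of Vegfa, Vegfc, Flt1, Kdr and Nrp2 in reactive and other general capillary cells of the control library (blue) and the metastatic library (red), with exact Poisson 95% intervals. Vegfa reached 412 CPM in metastatic reactive cells and 262 CPM in the other metastatic cells, whereas Kdr differed by library and not by state.

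Other genes of the pathway were described by lists and in general capillary cells, where 8.97% of all features were past the limit in the higher and 4.74% in the lower direction. Of the receptor relay, which carries the signal of VEGFR2 into the cell, 23 of 24 genes reached 200 UMIs, 1 was past the limit higher and 0 lower, with a median ratio of 0.077. The adaptor gene Shb was at 17.2 and 23.8 CPM, a ratio of 0.47 (0.31 to 0.63). Its neighbors in size were Nck2 at -0.32, Fyn at 0.17 and Pxn at -0.17. Of the receptor partners, which cluster, internalize or dephosphorylate the receptors or share them with guidance cues, 2 of 19 were past the limit higher and 1 lower (median 0.09). Plxnd1, a semaphorin receptor that works with neuropilins, was at 23.7 and 46.2 CPM, a ratio of 0.96 (0.83 to 1.09), and was at 1.10 in aerocytes. Unc5b, a netrin and Robo4 partner, was at 4.45 and 7.86 CPM, a ratio of 0.82 (0.51 to 1.13). The matrix gene Hspg2 was past the limit in the lower direction at -0.37, but its interval of -0.78 to 0.03 held 0, and Myo6, which carries endocytic vesicles, was at 0.28.

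Another list held genes known to be induced by VEGF-A or to mark tip cells. Of 14 with at least 200 UMIs, 9 were past the limit higher and 0 lower, with a median ratio of 0.50. Cxcr4, a chemokine receptor of tip cells, was at 9.72 and 20.1 CPM, a ratio of 1.05 on 312 and 609 UMIs. Hlx, a transcription factor gene, was at 18.8 and 32.2 CPM (0.78), Adamts1, which encodes a secreted protease, at 198 and 317 CPM (0.67), and Rcan1, a calcineurin inhibitor gene, at 28.3 and 44.1 CPM (0.64). The remaining 10 lay between -0.15 and 0.57. In aerocytes 6 of 9 such genes were past the limit higher, against 7.15% of 8252 features, and 1 lower, against 4.22%. The lower gene was Plaur at -0.52 (-0.63 to -0.41), named after its values were seen. The list itself was chosen with earlier results of these data known. Many of these genes also respond to other stimuli, and their change by VEGF signaling was not tested.

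Of 15 regulators of Vegfa, 1 was past the limit higher and 0 lower (median -0.09). That gene was Zfp36l1, whose product promotes the decay of Vegfa RNA, at 300.3 and 450.4 CPM, a ratio of 0.58 (0.55 to 0.62), and at 0.69 in aerocytes. Hif1a, which encodes the oxygen-regulated activator of Vegfa, was at 82.7 and 97.5 CPM (0.24), Stat3 at 145 and 162 CPM (0.16), and Vhl, whose product marks HIF proteins for destruction, at 13.9 and 12.3 CPM (-0.17). Of 10 hypoxia targets, 3 were past the limit higher and 2 lower (median 0.11). Bnip3, a mitophagy gene, was at 84.3 and 49.3 CPM (-0.77) and Ddit4, an inhibitor of growth signaling, at 113 and 76.7 CPM (-0.56), whereas Ankrd37 was at 0.57, Ndrg1 at 0.40 and Ldha, named after its values were seen, at 0.37. Hypoxia targets thus lay past the limit in both directions. Of 8 feedback genes, which dampen ERK signaling, 2 were past the limit higher and 1 lower (median -0.03). Dusp5 was at 0.66 and Spry4 at 0.54, whereas Spry1 was at -0.53 and Spry2 at -0.16.

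**Figure D5:**
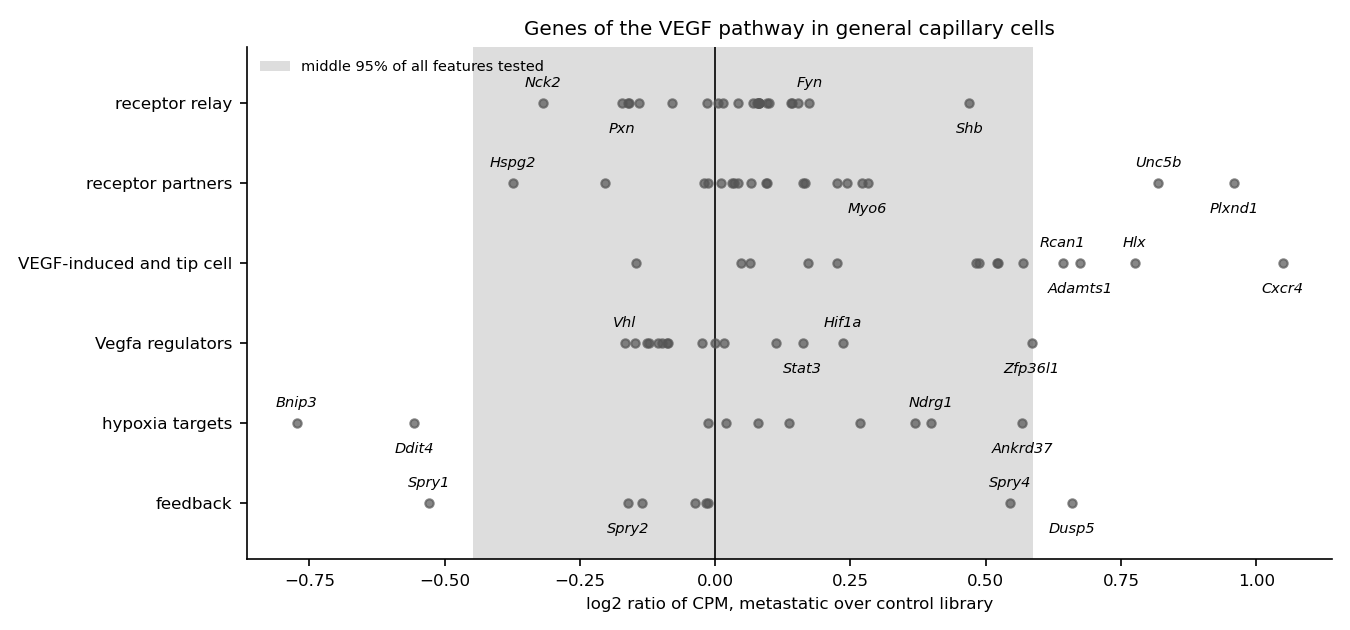
Log2 ratio of metastatic over control CPM (horizontal axis) in general capillary cells for the pathway genes with at least 200 UMIs, 1 row per list and 1 point per gene; the shaded band holds the middle 95% of all 10222 features. Plxnd1, Unc5b, Cxcr4, Hlx, Adamts1, Rcan1 and Dusp5 lie above the band, and Bnip3, Ddit4 and Spry1 below it.

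Likeness between genes was measured as Pearson's r of log2(CPM + 1) over the 8 levels formed by 4 classes and 2 libraries, among 10815 genes, as a description of points that share libraries and differ in depth. Genes with the pattern most like Vegfa were Epha4 (r = 0.978), the arterial connexin gene Gja4 (0.976) and Rnf144a (0.973). Vegfc was most like Lbp (0.993), Gm43672 (0.987) and Chchd7 (0.985). Vegfb, with fewer UMIs, had lower values, led by Hist3h2a (0.92), Lysmd2 (0.907) and Slc5a3 (0.903). Kdr was most like Trim13 (0.991), Ndufb6 (0.988) and Pdp1 (0.982), Nrp1 like Tspyl1 (0.995), Phlda3 (0.993) and Klf12 (0.98), and Flt1 like Sik2 (0.978), Synj2 (0.977) and Tmsb4x (0.964). Flt4 was most like Ddx46 (0.989), Zfp747 (0.972) and Lsm14b (0.969), and Nrp2 like Ptk2b (0.988), Klhl13 (0.986) and Gsto1 (0.986). Within the family, Kdr and Nrp1 had an r of 0.777, Vegfa and Flt4 of 0.799, Vegfc and Nrp2 of 0.729 and Flt1 and Nrp2 of 0.822. Other pairs were negative, among them Vegfc and Flt4 (-0.692), Vegfc and Nrp1 (-0.688) and Vegfa and Kdr (-0.397). Pgf had too few UMIs to be compared, and with 8 levels small differences in r do not rank genes.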

How the data were processed

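Single-cell 3′ RNA-seq was made from PECAM1-sorted lung cells, 1 library of 2 pooled mice per group. The authors deposited raw UMI counts per gene and barcode, written by Cell Ranger (version 3.1.0 per the file headers) on mm10, with no cell filter or normalization; Seurat is also named in the submitters' processing notes, and the annotation release counted on is not given in the sources used here. Coordinates are those of GENCODE for GRCm38, matched by gene identifier.

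Barcodes with 1000 to 5000 genes and under 20% mitochondrial UMIs were kept, which removed 2 control and 0 metastatic barcodes by the latter rule. Doublets were kept, and their removal (0.8% per 1000 cells) was an alternative. UMIs were summed per class and library. Thinning drew 2000 UMIs per cell with fixed seeds, in separate draws for shares and for ratios. A thinned ratio thus weights cells equally, leaves out cells too shallow to thin and carries added sampling error, for which no interval was computed. Differences of 2 ratios carry normal intervals on the log2 scale. Features with at least 200 UMIs over both libraries in a class were counted when past the fold whose log2 is 0.32. The counting code was tested on simulated data. All members were named in every class, and per pathway list up to 4 genes with the largest absolute ratio in general capillary cells.

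Free RNA was profiled in barcodes with 11 to 50 UMIs, and its share in called cells, estimated from 33 genes of other cell types, was 7.36% and 7.27%, an estimator chosen after the data were seen. That profile held melanoma markers at 5287 and 5273 CPM, against 1.87 and 2.38 CPM in called general capillary cells, so it does not describe the RNA in called cells. Results after its subtraction are given in the closing section only, as a count of members with the Vegfc ratio and within the ranges over all alternatives. The members, marker and pathway lists and tests were chosen with earlier results of these data known, and some lists follow the study's account of samples that include these. Alternatives covered cell filters, doublets, class rules, free RNA, scaling, thinning and the fold. Python 3.11.15, NumPy 2.4.6, SciPy 1.17.1, scikit-learn 1.9.0 and matplotlib 3.10.9 were used.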

Additional observations from a re-analysis of the deposited data

Results flagged for a closer look

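Barcodes with 50 to 1000 UMIs that appeared in 1 library only were too small to be called cells and entered no comparison above. Among them the metastatic level of Vegfa was 148.7 CPM, above the control level of 96.3 CPM (89.9–103). For Flt1 these levels were 445 and 403 CPM. Kdr was at 372 and 325 CPM and Nrp1 at 299 and 272 CPM, in the same order. The melanoma markers stood at 67.2 CPM in the metastatic and 195 CPM in the control barcodes of this kind. The source of these RNAs was not tested.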

How the results depend on the processing

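No paired analysis was possible because each group holds 1 library. The alternatives on lymphatic cells and on thinning before summing were chosen after the data were seen. In general capillary cells the ratio of Nrp1 was 0.58 without cells that held any UMI of another class marker, those of Vegfa and Kdr were 0.76 and 0.64 as means of each cell's CPM, and that of Flt1 was 0.16 with median-of-ratios and 0.17 with TMM scaling. Over all alternatives Vegfa stayed within 0.76 to 0.86, Kdr within 0.64 to 0.72, Nrp1 within 0.51 to 0.58 and Flt4 within -0.28 to -0.15. Vegfa in reactive over other cells was 0.41 in the metastatic library with 2 of 7 genes required, and 0.32 in the control and 0.34 in the metastatic library by Inhbb. Of the counts of members, the aerocyte count in the lower direction was 0 with cells of more than 1 class counted in each and 0 at 1.5-fold. The artery count in the higher direction was 1 with other-type cells left out and 1 at 1.5-fold, where fewer features qualify, and 6 with no minimum of UMIs. At 1.5-fold the general capillary count was 2 and the vein count 0, both in the higher direction, and subtraction of free RNA gave 1 general capillary member in the lower direction, Vegfc at -0.33, although the subtracted profile holds melanoma RNA that called cells lack and that value is therefore not a correction. Values whose interval excluded 0 and that changed sign were Nrp2 of metastatic artery over general capillary cells, -0.084 against 3.44 once the lymphatic cells were left out, and Vegfb of metastatic aerocytes over general capillary cells, -0.22 against 0.36 after thinning. By the Inhbb rule Nrp1 of reactive over other control cells changed sign too, to 0.28 against -0.14 (-0.27 to -0.025). Values with 0 within the interval also changed sign, among them artery Nrp1 (-0.22 after thinning), Vegfa and Vegfc of metastatic artery over general capillary cells (-0.07 and 0.97 with cells of more than 1 class counted in each) and Vegfa of reactive over other control cells (the Inhbb value above). Other causes were not tested. Both scalings shifted the median by 0.02 to 0.05. Of the counts of members under these alternatives 120 stayed within 1.5 times and 8 did not. Depth limits Pgf in every blood vessel class, Nrp2 in capillary cells and most members in artery cells, where 59 to 63 cells were pooled.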
